A study of Mus musculus with 9 samples.

Results

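Immunoreceptor tyrosine-based activation motifs (ITAMs) are short tyrosine-containing stretches in the tails of membrane adaptors. Macrophage receptors that have no signalling tail of their own associate with such an adaptor. DAP12, the product of Tyrobp, serves TREM2 and SIGLEC15, and the Fc receptor gamma chain, the product of Fcer1g, serves OSCAR and the Fc receptors. Once the motif is phosphorylated it binds the kinase SYK, which acts through the kinase BTK and the phospholipase PLCG2 to release calcium. Paired receptors with inhibitory motifs (ITIMs), such as PIRB and LILRB4A, recruit phosphatases that oppose this signal. In osteoclast precursors, which belong to the macrophage lineage, the ITAM route is known as a costimulatory input beside RANK.

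The 10 genes examined were Tyrobp, Fcer1g, Trem2, Oscar, Siglec15, Pirb, Lilrb4a, Syk, Plcg2 and Btk, chosen by symbol, out of 47731 genes in the RNA table. Of these, 9 were in that table; the gene ID of Lilrb4a was not among the table's IDs, so its RNA was not analysed here. The samples were mouse macrophages at passage 0 that carried a Tet2 knockout or were wild type, and cells of both genotypes were treated with M-CSF, the growth factor of macrophages. RNA was measured in 2 knockout and 3 wild-type libraries, and 5-hydroxymethylcytosine (5hmC), the product of TET enzymes, in 2 libraries of each genotype. The labels do not state the strain, age or sex of the mice, the tissue the cells were grown from, the Tet2 allele or the animals behind each library, so p-values measure only a spread between libraries that may be technical. The study's title concerns osteoclast differentiation and RUNX1, and no library was labelled as an osteoclast.

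Libraries held 16053426 and 25479447 RNA counts for the knockout label and 17569441 to 56394358 for the wild-type label. Tet2 itself had 228 and 122 normalised CPM (counts per 1000000 of the scaled library) in the libraries labelled knockout, against 104, 136 and 39.2 in those labelled wild type, so its gene count did not separate the labels. The knock-in feature ENSMUSGKI000000001 of the RNA table, by contrast, was counted 1452 and 2245 times under the knockout label and 0 times in each library labelled wild type. Groups are therefore called by their labels. Of 10 macrophage markers, 9 stood above 10 normalised CPM in every library, and Cx3cr1 was the exception. Several of them separated the labels without overlap, in both directions, where 36.2% of all tested genes separated. Adgre1, Fcgr1, Itgam and Cd14 were 3.66-fold, 2.11-fold, 2.68-fold and 2.44-fold higher in the libraries labelled knockout (DESeq2 adjusted p = 0.0264, 0.00169, 0.190 and 0.0788). Their edgeR adjusted p was 0.297, 0.199, 0.373 and 0.288. Cd68 and Mertk were 3.33-fold and 3.55-fold lower (DESeq2 adjusted p = 0.0288 and 0.0435, edgeR adjusted p = 0.281 and 0.286). The other macrophage markers overlapped. All 10 markers of NK and T cells, where DAP12 and the gamma chain also act, were below 1 in every library, with Prf1, Gzma and Cd3e at 0; mast cell and basophil markers summed to 2.59 to 5.07 against 1.71 to 6.45, with Mcpt4 and Tpsb2 at 0. B cell markers, relevant to Syk, Btk and Plcg2, summed to 14.4 to 27.8 against 13.5 to 63.1, with Vpreb3 and Igll1 at 0.

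Among the 7 members with enough counts to be tested, 3 had less RNA in the libraries labelled knockout. The DAP12 adaptor gene Tyrobp was 2.17-fold lower, its receptor gene Trem2 5.07-fold, and the inhibitory receptor gene Pirb 1.81-fold, with overlap between the labels for Pirb. The mean levels of the gamma chain gene, the kinases and the phospholipase were not lower. None of the 7 passed the threshold of edgeR's quasi-likelihood test (Benjamini-Hochberg adjusted p under 0.05), by which 2 of 14851 genes (0.0135%) were called. At an unadjusted p under 0.05, edgeR gave 1 member, Trem2, where 13.8% of all tested genes reached it. With DESeq2 the adjusted p called 1 member, again Trem2, where 8.22% of genes were called, 4.83% in the lower direction. In bulk RNA, fewer cells of a type and less RNA per cell cannot be told apart. A separation with no overlap between the labels was seen for 2 of 7 tested members on the lower side (Trem2 and Tyrobp; 19.0% of all tested genes) and for 2 of 7 on the higher side (Plcg2 and Btk; 17.2%), or 4 of 7 in either direction, where 36.2% of all tested genes separated.

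**Figure D1:**
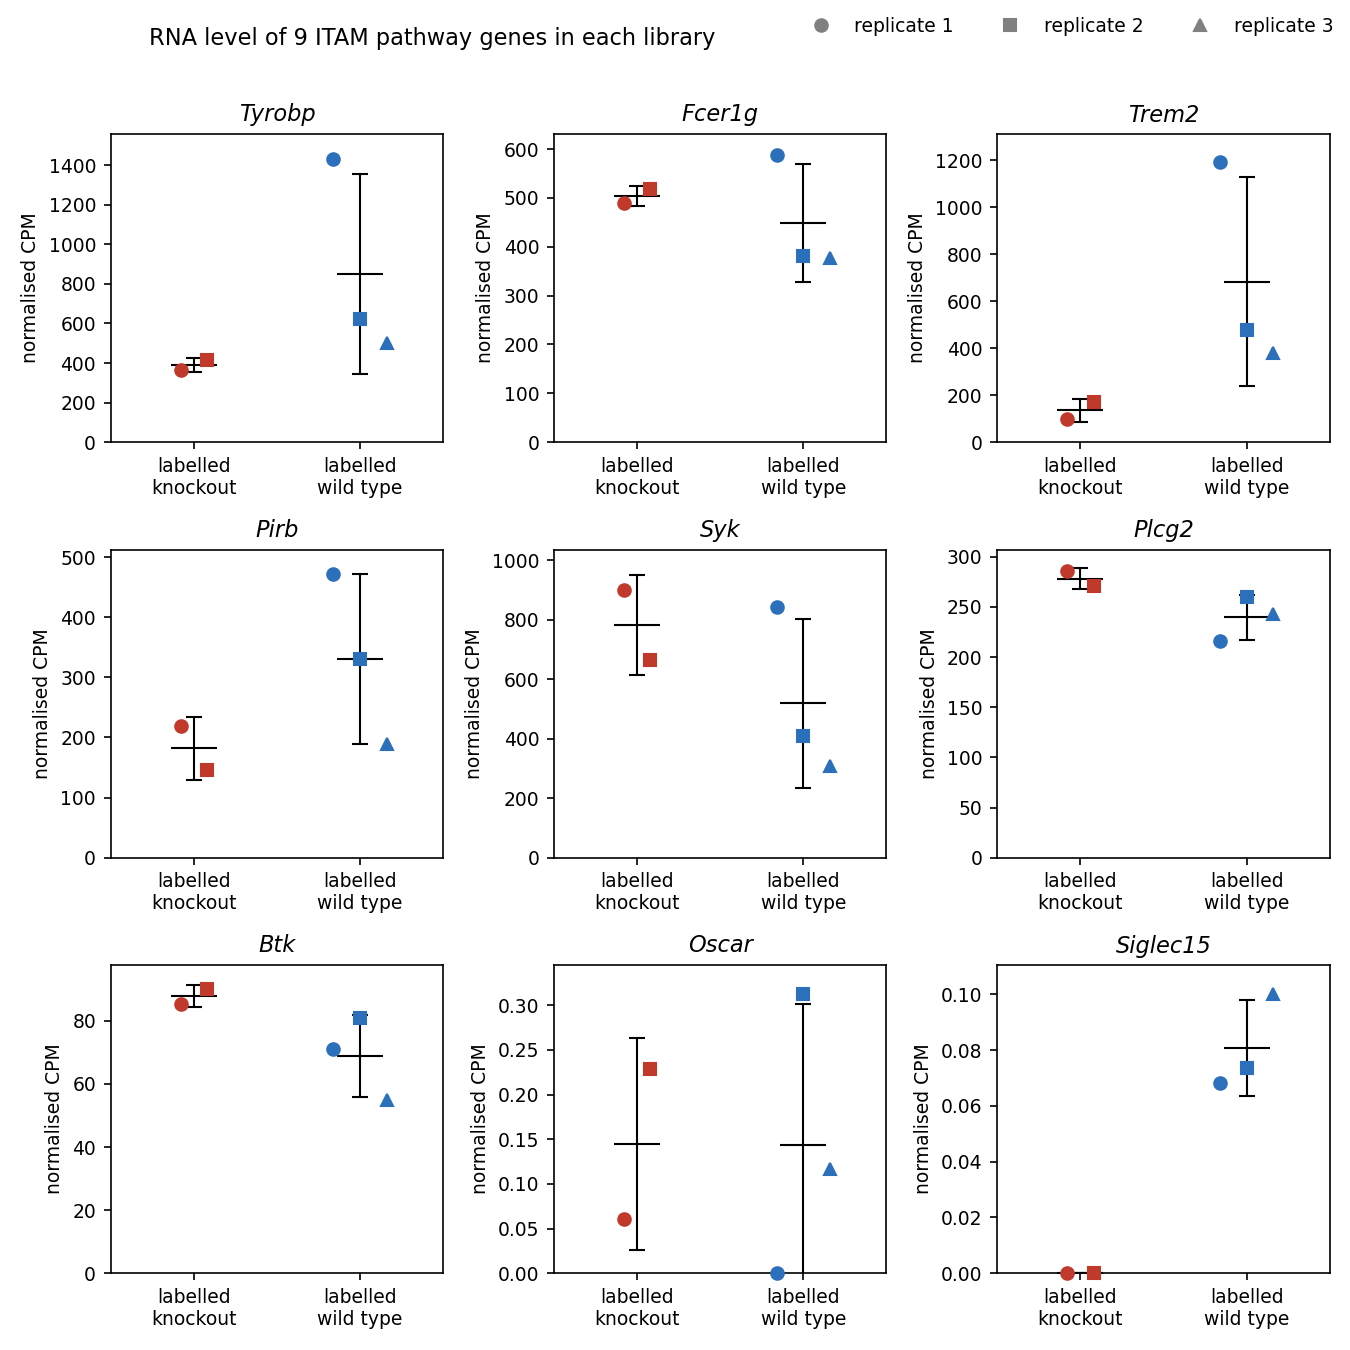
Normalised CPM (vertical axis of each panel, linear from 0) of the 9 members in the RNA table, in libraries labelled knockout (red, left) and wild type (blue, right). Symbols mark the replicate number, horizontal lines the mean and bars the SD. Trem2 and Tyrobp sit lower in both libraries labelled knockout, and wild-type replicate 1 is the highest library for both.

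Trem2 (ENSMUSG00000023992, chr17:48346401-48352276, GRCm38) encodes a lipid-sensing receptor that signals through DAP12. Its RNA stood at 98.7 and 171 normalised CPM in the libraries labelled knockout, against 1193, 478 and 377 in those labelled wild type. The lowest library labelled wild type was 2.21 times the highest one labelled knockout. Means were 135 ± 51.0 (SD, n = 2) and 683 ± 445 (SD, n = 3), a fitted log2 difference of -2.34 ± 0.64 (SE). The edgeR adjusted p was 0.240 and the DESeq2 adjusted p was 0.00485, so the call depends on the tool. Replicate 1 labelled wild type was 3.16 times replicate 3, and without it the log2 difference was -1.69. In all, 560 of 14851 tested genes had a fitted difference as low or lower.

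Tyrobp (ENSMUSG00000030579, chr7:30413782-30417582) encodes DAP12. It was measured at 365 and 417 normalised CPM in the libraries labelled knockout and at 1429, 621 and 500.2 in those labelled wild type, which did not overlap. The mean was 391 ± 36.4 (SD, n = 2) against 850.2 ± 505 (SD, n = 3), a log2 difference of -1.12 ± 0.53 with an edgeR adjusted p of 0.418 and a DESeq2 adjusted p of 0.245. Wild-type replicate 1 was the highest by far, and without it the difference was -0.55. The sums of 10 platelet and megakaryocyte markers also separated the labels, at 43.2 to 49.2 normalised CPM against 99.9 to 314, with wild-type replicate 1 the highest. Most of the sum was Vwf in wild-type replicate 1 (233) and Pf4 in wild-type replicate 3 (120). Pf4 was lowest in wild-type replicate 1, at 4.79 against 31.5 and 19.2 in the libraries labelled knockout. Itgb3 is in this list and also in the osteoclast list. The part of these markers in the differences was not tested. Osteoclast markers went in both directions: Atp6v0d2 (log2 -4.48) and Itgb3 (-3.29) were lower beside Trem2, Mmp9 was higher (4.82), and Ctsk and Acp5 overlapped between the labels. The 10 summed to 833 to 896 against 327 to 1083, totals that rest on different genes. Mmp9 made up 755 and 634 of the sums labelled knockout, and Atp6v0d2 931, 153 and 226 of those labelled wild type. DESeq2 called Atp6v0d2, Itgb3 and Mmp9, and edgeR's adjusted p was 0.256, 0.209 and 0.301. Their part was not tested either.

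The receptor was also set against its own adaptor inside each library. Trem2 counts were 0.270 and 0.410 of Tyrobp counts in the libraries labelled knockout, against 0.835, 0.770 and 0.754 in those labelled wild type, and these ratios did not overlap. No library scaling enters a ratio taken inside a library. On the log2 scale the ratio differed by -1.24, a 2.36-fold lower value, with an exact two-sided permutation p of 0.1, adjusted over 2 ratios to 0.1, which is the smallest p that 2 against 3 libraries allow. Leaving out any library gave -1.54 to -0.94. The wild-type ratios lay close together even though Trem2 and Tyrobp themselves varied 3.16-fold and 2.86-fold there.

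The promoter window of Trem2 is shown for its PU.1 match and that of Fcer1g for its RUNX match, the factor in the study's title, with Oscar, whose 5hmC peak lies nearby. Each runs from 250 bases before the start to 50 after it, from RefSeq on GRCm38.p6, at chr17:48346151-48346450 (plus strand), chr7:3616108-3616407 (minus strand) and chr1:171234300-171234599 (minus strand), for Trem2, Oscar and Fcer1g in that order. Capitals mark matches to GAGGAAG (a core of PU.1, the myeloid ETS factor), TGTGGT (a RUNX core) and the E-box forms CACGTG and CACATG, read on both strands, so that CTTCCTC is the PU.1 core on the other strand.
Trem2: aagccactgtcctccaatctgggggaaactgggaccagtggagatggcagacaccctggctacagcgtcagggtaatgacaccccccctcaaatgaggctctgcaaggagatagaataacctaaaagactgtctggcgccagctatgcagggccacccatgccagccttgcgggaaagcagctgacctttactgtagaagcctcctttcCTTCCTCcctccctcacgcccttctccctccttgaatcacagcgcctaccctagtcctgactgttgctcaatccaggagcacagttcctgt
Oscar: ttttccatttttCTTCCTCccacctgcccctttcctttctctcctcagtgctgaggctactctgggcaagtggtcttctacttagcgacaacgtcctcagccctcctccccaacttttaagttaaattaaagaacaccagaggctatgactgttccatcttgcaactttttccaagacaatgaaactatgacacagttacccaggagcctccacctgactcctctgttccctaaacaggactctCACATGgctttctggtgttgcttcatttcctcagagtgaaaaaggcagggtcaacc
Fcer1g: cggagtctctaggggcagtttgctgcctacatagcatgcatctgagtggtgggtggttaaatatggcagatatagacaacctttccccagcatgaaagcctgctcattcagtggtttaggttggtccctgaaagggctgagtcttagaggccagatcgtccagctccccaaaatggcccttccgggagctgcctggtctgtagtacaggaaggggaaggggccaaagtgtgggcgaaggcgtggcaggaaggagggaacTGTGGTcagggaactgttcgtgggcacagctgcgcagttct

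Windows of 7 of the 10 members were found, 8 in all because Syk has 2 starts. GAGGAAG stood in 4 of the 8 (Trem2, Oscar, Pirb and Btk), against 13.6% of 32817 promoter windows in the whole table. TGTGGT stood in 1 of the 8, Fcer1g, at bases 9 to 14 after the start, against 16.8%; CACATG was in Oscar and Pirb (14.2% of windows) and CACGTG in Plcg2 (7.15%). No matches overlapped. These are letter matches in a fixed window and describe neither binding nor its absence.

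Fcer1g (ENSMUSG00000058715, chr1:171229572-171234349) encodes the gamma chain of the Fc receptors. Its level was 489.9 and 519 normalised CPM in the libraries labelled knockout and 588, 382 and 376 in those labelled wild type, so the labels overlapped. The log2 difference was 0.17 ± 0.30, with an edgeR adjusted p of 0.834. Against the other adaptor it stood higher: the Fcer1g to Tyrobp ratio was 1.34 and 1.25 in the libraries labelled knockout, against 0.411, 0.614 and 0.752 in those labelled wild type. This difference of 1.17 on the log2 scale, 2.25-fold, again had the smallest possible exact permutation p of 0.1 (adjusted over 2 ratios 0.1), and ranged from 0.93 to 1.36 when single libraries were left out.

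**Figure D2:**
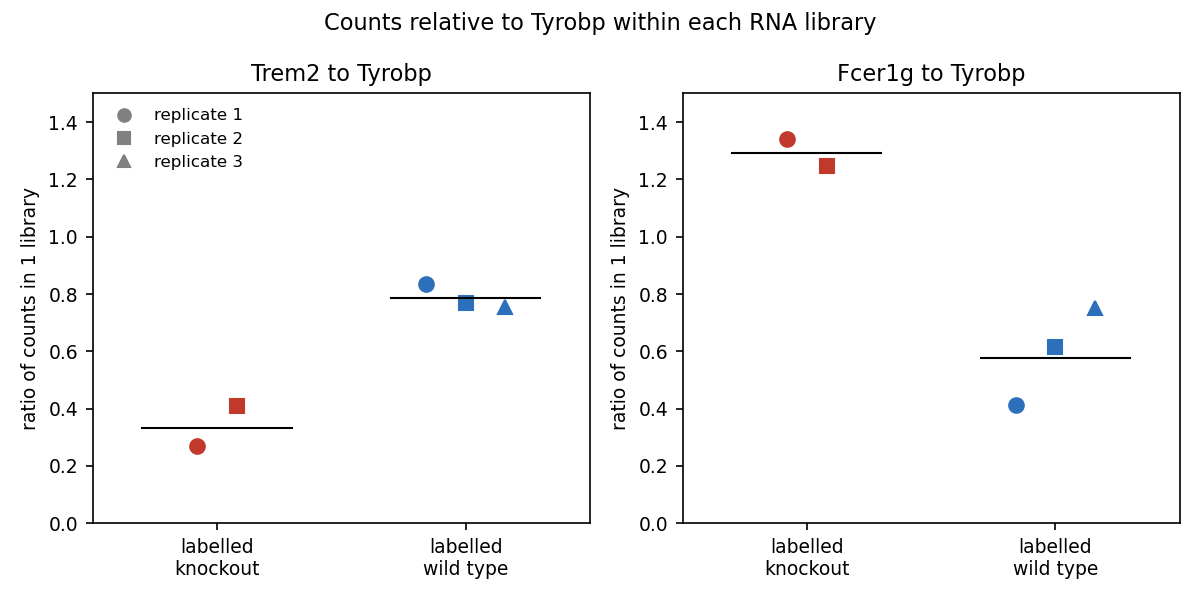
Ratio of counts of Trem2 to Tyrobp and of Fcer1g to Tyrobp within each library (vertical axis, ratio of counts), with libraries labelled knockout left of those labelled wild type, symbols for the replicate number and lines for the mean. The Trem2 ratios labelled knockout (0.270 and 0.410) lie below, and the Fcer1g ratios labelled knockout (1.34 and 1.25) above, every library labelled wild type.

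Oscar and Siglec15, the receptors best known from osteoclasts, were close to the limit of counting. Oscar (ENSMUSG00000054594, chr7:3609813-3616157) was counted 1 and 6 times in the libraries labelled knockout, against 0, 17 and 7 in those labelled wild type. Siglec15 (ENSMUSG00000091055, chr18:78042493-78057441) had 0 and 0 counts, which allow up to 0.187 and 0.118 CPM, against 1, 4 and 6, or 0.0569, 0.0779 and 0.106 CPM. Every library labelled wild type lay under those limits, so a difference was not detectable at this depth. Neither gene passed the filter on low counts, and their ratios to an adaptor were not computed.

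Pirb (ENSMUSG00000058818, chr7:3712505-3720382) encodes an inhibitory receptor with ITIMs. Its RNA was 219.5 and 145 normalised CPM in the libraries labelled knockout and 471, 330.0 and 189 in those labelled wild type, with overlap between the labels. The log2 difference was -0.86 ± 0.45 with an edgeR adjusted p of 0.460, and -0.53 without wild-type replicate 1. Pirb and its activating relatives of the PIR-A group are near-identical in sequence, so reads may have been split between them. Pira2 had 3.36 and 2.74 normalised CPM against 29.0, 14.4 and 14.0 (edgeR adjusted p = 0.177, DESeq2 adjusted p = 9.58e-06), while Lilra6, another relative taken up after its values were seen, had 27.0 and 16.5 against 19.2, 6.84 and 1.65.

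The fitted differences of the kinases and the phospholipase were positive, and none passed the threshold. Syk (ENSMUSG00000021457, chr13:52582610-52648792) stood at 902 and 664 normalised CPM in the libraries labelled knockout and at 841, 409 and 307 in those labelled wild type. These overlapped, since replicate 1 labelled wild type exceeded the lower library labelled knockout; the log2 difference was 0.59 ± 0.49 (edgeR adjusted p = 0.620), and 1.10 without that replicate. Plcg2 (ENSMUSG00000034330, chr8:117498275-117635142) had 286 and 271 against 216, 259 and 243, which did not overlap by a margin of 1.04-fold. Its log2 difference was 0.22 ± 0.21 with an edgeR adjusted p of 0.670. Btk (ENSMUSG00000031264, chrX:134542334-134583628) had 85.3 and 90.2 against 71.0, 80.8 and 54.9, a margin of 1.06-fold and a log2 difference of 0.35 ± 0.23 (edgeR adjusted p = 0.547). Both margins are smaller than the spread among the libraries labelled wild type, 1.20-fold for Plcg2 and 1.47-fold for Btk. The same holds for the members that separated on the lower side. Their margins were 2.21-fold for Trem2 and 1.20-fold for Tyrobp, against wild-type spreads of 3.16-fold and 2.86-fold.

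Members differed in how they varied between libraries of the same label. In the libraries labelled wild type the highest was 2.86 times the lowest for Tyrobp, 3.16 for Trem2, 2.74 for Syk and 2.50 for Pirb, against a median of 1.75 over tested genes. In those labelled knockout the same ratio ran from 1.06 for Fcer1g, Plcg2 and Btk to 1.73 for Trem2, against a median of 1.29. Wild-type replicate 1 was the highest of its label for Tyrobp, Trem2, Fcer1g, Pirb and Syk, and the lowest for Plcg2. It also had the highest summed macrophage markers, 32873 normalised CPM against 13803 and 17461 in the other wild-type libraries, and 19269 to 22198 in the libraries labelled knockout. Lyz2 (15718) and Mpeg1 (11053) made up most of that sum in wild-type replicate 1. Fcgr1 (65.5), Itgam (63.1), Cd14 (130) and Cx3cr1 (2.67) were lower there than in any other library. Replicate 3 labelled wild type carried stromal and osteoblast markers at 5038, against 14.8 to 20.4 in the libraries labelled knockout; without it Trem2 differed by -2.63 and Tyrobp by -1.39. Neutrophil markers summed to 1.53 and 172 in the libraries labelled knockout and to 154, 9.92 and 1.86 in those labelled wild type, so they were high in 1 library of each label, wild-type replicate 1 among them. Dendritic cell markers summed to 91.2 to 115 against 95.5 to 140. The part of these library differences was not tested.

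Over the 5 libraries, with no test, the listed pathway gene whose log2 level ran most like that of Trem2 was Tec (Pearson r = 0.984) and the one most like Tyrobp was Stim1 (r = 0.982). The next were Lat2 for Trem2 (r = 0.978) and Cd300c2 for Tyrobp (r = 0.981). Fcer1g ran most like Fcgr4 (r = 0.95) and Vav2 (r = 0.918), Pirb like Inppl1 (r = 0.967) and Stim1 (r = 0.916), and Syk like Fgr (r = 0.951) and Itpr2 (r = 0.941). Plcg2 was nearest to Pilrb1 (r = 0.988) and Pik3cg (r = 0.968), and Btk to Clec4a1 (r = 0.988) and Ptpn6 (r = 0.987). These values come from 107 genes compared and the libraries differ in depth and makeup. A high r does not mean a change of like size. Stim1 stood at 58.8 and 59.2 normalised CPM in the libraries labelled knockout, against 64.9, 61.7 and 59.4 in those labelled wild type. Its levels were thus nearly flat where those of Tyrobp were not.

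The wider pathway was divided into 5 lists, of which 21 of 26 activating receptors, 19 of 20 inhibitory receptors, 28 of 29 adaptors and kinases, 15 of 16 negative regulators and 18 of 19 calcium and NFAT genes had enough counts to be tested. Genes were listed by symbol and no ITAM or ITIM was checked in protein sequence. The words activating and inhibitory therefore name a list, and some listed genes may lack the motif. Of 21 tested activating receptors, 14 (66.7%) had a fitted log2 difference beyond 1 in either direction, and of 19 tested inhibitory receptors 15 (78.9%) did, against 21.7% of all tested genes. Some of these rest on 1 library. Trem1 (-2.71) had 1170 counts in wild-type replicate 3, against 0 and 6 in replicates 1 and 2, and differed by 3.63 without replicate 3. Siglecg (-1.50) had 214 counts in wild-type replicate 3, against 0 and 4. How many of the receptors beyond 1 rest on a single library was not counted. In direction the activating receptors were split, 12 higher and 9 lower (median log2 0.15), and so were the inhibitory ones, 10 and 9 (median 0.21). For all tested genes the median was -0.03. In edgeR no gene of any list passed the adjusted threshold; at an unadjusted p under 0.05, 4 activating receptors were higher and 5 lower, and 6 inhibitory receptors were higher and 6 lower, where 5.95% of all tested genes were higher and 7.86% lower. Where DESeq2 called 8.22% of all genes (500 higher and 711 lower of 14725), it called 1 activating receptor higher and 3 lower, 3 inhibitory receptors higher and 4 lower, 6 adaptors and kinases higher and 3 lower, 1 gene of the calcium arm higher and no negative regulator.

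Among the activating receptors, Fcgr3, a low-affinity Fc receptor that uses the gamma chain, stood at 34.4 and 41.7 normalised CPM in the libraries labelled knockout, against 687, 303 and 417 in those labelled wild type. That is a log2 difference of -3.62 ± 0.46, with an edgeR adjusted p of 0.148 and a DESeq2 adjusted p of 3.7e-13. Clec7a, the beta-glucan receptor Dectin-1, which carries its own ITAM-like motif, had 2.87 and 9.63 against 675, 123 and 185 (log2 -5.70 ± 1.15, edgeR adjusted p = 0.197, DESeq2 adjusted p = 2.64e-08). Its log2 difference was -4.65 without wild-type replicate 1, -5.07 without knockout replicate 1 and -6.85 without knockout replicate 2. Fcgr1, the high-affinity Fc receptor, was on the higher side with 167 and 151 against 65.5, 91.6 and 69.2 (log2 1.08 ± 0.23, edgeR adjusted p = 0.199, DESeq2 adjusted p = 0.00169). Receptors that share the gamma chain thus lay on both sides. Of the inhibitory receptors, Lair1, which binds collagen, had 53.7 and 60.4 against 127, 130.4 and 121, and Cd22, a sialic-acid-binding receptor, 3.42 and 2.66 against 62.0, 10.7 and 10.5. Cd72 had 675 and 669.7 against 154, 263 and 175, and Pecam1 25.9 and 6.93 against 2.19, 1.43 and 2.36. The log2 differences were -1.14 for Lair1, -3.18 for Cd22, 1.77 for Cd72 and 3.04 for Pecam1, and their edgeR adjusted p lay between 0.166 and 0.279. DESeq2 called all 4, with adjusted p of 6.28e-09 for Lair1, 0.0106 for Cd22, 1.28e-05 for Cd72 and 0.000538 for Pecam1. Without wild-type replicate 1 the value for Cd22 was -1.83, and that for Pecam1 was 1.80 without knockout replicate 1 and 3.69 without knockout replicate 2.

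**Figure D3:**
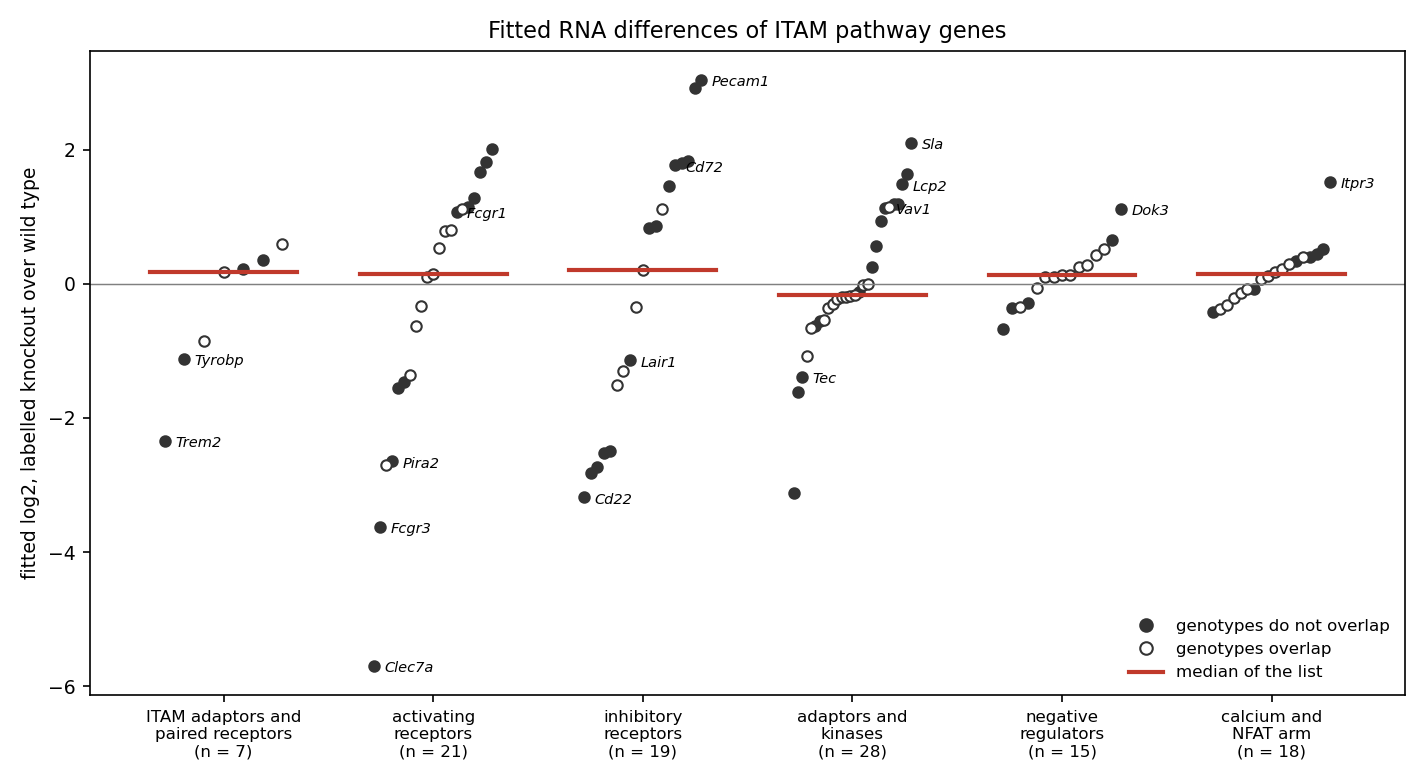
Fitted log2 difference in RNA, knockout label over wild-type label (vertical axis), for each tested gene of the members and of the 5 pathway lists (horizontal axis, n below each). Filled points do not overlap between the labels, open points do, and red lines are list medians. Members, and the 4 genes of each list with the smallest unadjusted edgeR p, are named where they lie beyond 1. Activating receptors run from -5.70 to 2.01 and inhibitory ones from -3.18 to 3.04.

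Downstream, 11 of 28 tested adaptors and kinases were higher and 17 lower (median log2 -0.17), and 39.3% were beyond 1. The phosphotyrosine adaptor Sla, known for receptor down-regulation, had 278 and 192 normalised CPM against 54.3, 63.5 and 46.8 (log2 2.10 ± 0.26, edgeR adjusted p = 0.148, DESeq2 adjusted p = 1.55e-09). Lcp2, which encodes the scaffold SLP-76, had 267 and 186 against 58.6, 89.2 and 94.8, and Vav1, a guanine nucleotide exchange factor, 658 and 495 against 272, 276 and 238. Tec, a kinase related to Btk, had 34.1 and 38.6 against 126, 81.2 and 77.8. DESeq2 called these 3 genes as well, with adjusted p of 0.00268 for Lcp2, 0.000156 for Vav1 and 0.00152 for Tec. Of the negative regulators 1 of 15 tested (6.67%) was beyond 1: Dok3, which encodes an adaptor, at 104 and 66.6 against 27.8, 54.2 and 35.8. Cblb, a ubiquitin ligase, was at 56.4 and 46.9 against 96.2, 77.5 and 74.6. For Ptpn6, which encodes the phosphatase SHP-1, and Pag1, an adaptor that recruits CSK, the log2 differences were 0.65 ± 0.37 and -0.29 ± 0.20, with edgeR adjusted p of 0.488 and 0.564. In the calcium and NFAT arm 1 of 18 tested (5.56%) was beyond 1, the inositol trisphosphate receptor gene Itpr3, at 222 and 194 against 46.4, 88.2 and 82.8 (log2 1.52 ± 0.32, edgeR adjusted p = 0.200, DESeq2 adjusted p = 0.00403). Calcineurin subunits Ppp3r1 and Ppp3ca differed by 0.44 and -0.42 and calmodulin gene Calm3 by 0.52, with edgeR adjusted p of 0.400 to 0.417.

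For 5hmC, 9151 peaks were listed with totals of 46230 and 42489 under the knockout label and 42678 and 219116 under the wild-type label. Members overlapped 4 of them: 1 in Oscar, 2 in Syk and 1 in Plcg2. All 4 carry a name from the wild-type peak call only, a choice that favours higher counts there. Of all protein-coding genes 16.6% held a peak, 3.11% of those under 10 kb (1 of 6 members), 16.0% of those from 10 to 50 kb (0 of 2 members) and 39.3% of those over 50 kb (2 of 2 members). For the others the nearest peak was 7.29 kb away for Siglec15, 16.8 kb for Pirb, 26.6 kb for Trem2, 38.7 kb for Lilrb4a, 55.0 kb for Fcer1g, 169 kb for Tyrobp and 1863 kb for Btk.

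The Syk peak at chr13:52594784-52595116 lies 11347 to 11679 bases after the first start and 1766 to 2098 bases before the second. It was counted 1 and 1 times in the libraries labelled knockout, 2.16 and 2.35 per 100000 peak counts, against 6 and 27 counts, 14.1 and 12.3 per 100000, in those labelled wild type. Its exact (Clopper-Pearson) 95% intervals were 0.0548 to 12.1 and 0.0596 to 13.1 against 5.16 to 30.6 and 8.12 to 17.9 per 100000. Each covers counting error of a single library and is no test between the labels. Peaks called in wild type only had median counts of 2 and 2 under the knockout label, against 4 and 22 under the wild-type label. The share of all peaks that separate the labels was not counted. The 2 start windows, at chr13:52583187-52583486 and chr13:52596632-52596931 (plus strand), differ in CG dinucleotides, the sites at which TET enzymes mainly act: 31 in the first, at 72.0% GC, and 2 in the second, at 48.0% GC, against a median of 7 and 52.7% over all windows. They are shown for that contrast, and neither held a motif that was searched.
Syk first start: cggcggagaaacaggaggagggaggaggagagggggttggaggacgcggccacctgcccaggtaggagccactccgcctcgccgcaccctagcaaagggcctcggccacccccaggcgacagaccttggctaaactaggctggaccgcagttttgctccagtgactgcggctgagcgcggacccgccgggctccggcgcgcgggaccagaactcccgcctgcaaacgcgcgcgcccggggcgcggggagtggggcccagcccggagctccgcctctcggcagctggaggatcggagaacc
Syk second start: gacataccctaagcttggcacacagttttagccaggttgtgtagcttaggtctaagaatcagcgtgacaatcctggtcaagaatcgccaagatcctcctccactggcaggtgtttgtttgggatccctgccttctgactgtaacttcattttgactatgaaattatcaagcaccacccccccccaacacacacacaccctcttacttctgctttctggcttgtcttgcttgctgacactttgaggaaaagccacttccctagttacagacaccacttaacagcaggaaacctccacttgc

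The other Syk peak, at chr13:52636425-52636877, was counted 7 and 3 times under the knockout label, against 2 and 26 in those labelled wild type, or 15.1 and 7.06 against 4.69 and 11.9 per 100000, so the labels overlapped. In Oscar the peak at chr7:3614141-3614510, 1647 to 2016 bases after the start, had 3 and 3 counts against 4 and 23, or 6.49 and 7.06 against 9.37 and 10.5 per 100000. In Plcg2 the peak at chr8:117598271-117598660, 99996 to 100385 bases after the start, had 2 and 1 counts against 10 and 14, or 4.33 and 2.35 against 23.4 and 6.39. It alone passed the filter on low counts, and its log2 difference of -1.18 ± 1.31 had an edgeR adjusted p of 0.540, where 169 of 859 tested peaks (19.7%) were called. In this fit the 2 libraries labelled knockout, which differed by less than counting noise, enter as 1 sample against 2, so the spread comes from the libraries labelled wild type alone. The Plcg2 peak met the filter only through its 10 counts in wild-type replicate 1, under the label where it was higher. With total-count scaling in place of TMM scaling edgeR called 0 peaks, though 439 had an unadjusted p below 0.05, and DESeq2 with its own scaling called 63. With no filter on low counts, the same fit over all listed peaks gave the Syk peak nearest the second start a log2 difference of -1.99 ± 1.13 with an edgeR adjusted p of 0.305. The other Syk peak had 0.52 ± 0.72 (edgeR adjusted p = 0.785) and the Oscar peak -0.15 ± 0.85 (edgeR adjusted p = 0.964). The Plcg2 peak had -0.56 ± 0.99 in the fit with no filter, against -1.18 ± 1.31 with it. None passed the threshold, which does not show that 5hmC was alike in the labels. Plcg2 and Syk RNA, given above, were not lower in the libraries labelled knockout.

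**Figure D4:**
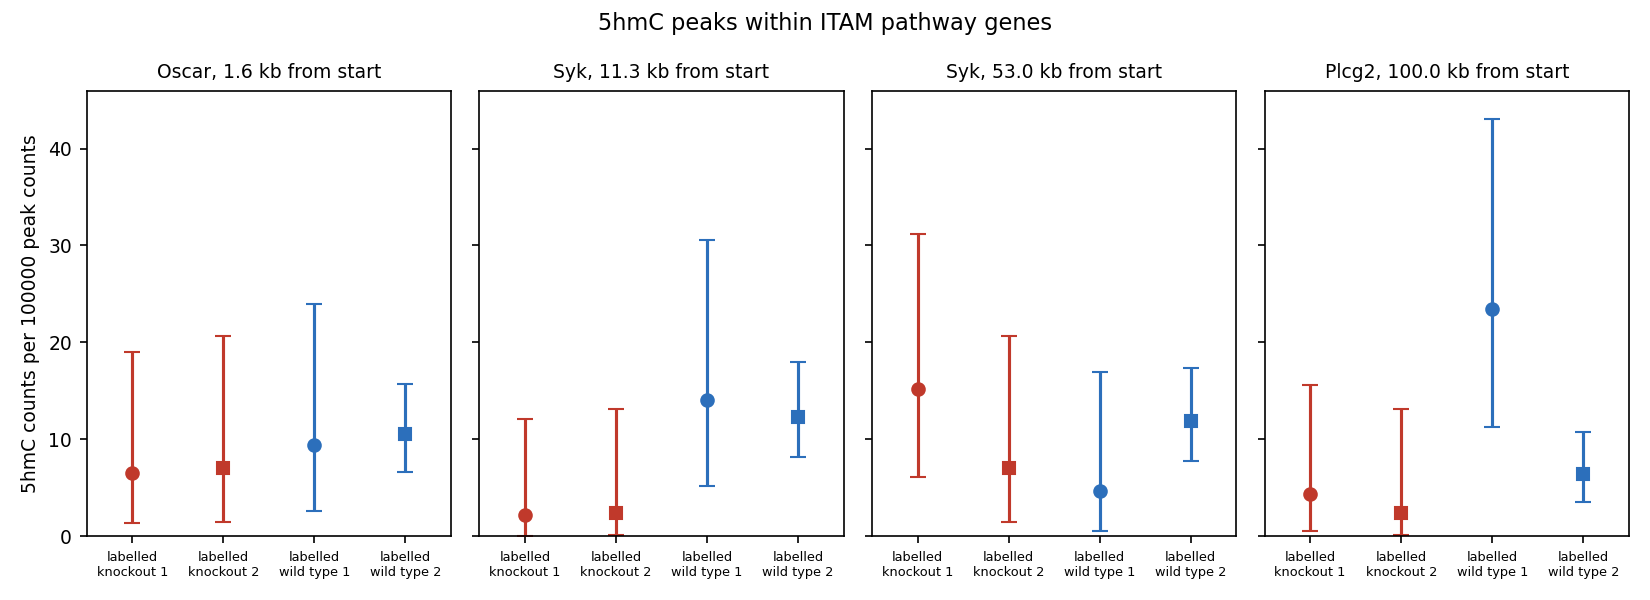
5hmC counts per 100000 peak counts (vertical axis) of the 4 peaks inside Oscar, Syk and Plcg2 in each library, libraries labelled knockout left of those labelled wild type; bars are exact 95% intervals, which cover counting error only and are no test between the labels. In the Syk panel at the left both libraries labelled knockout (2.16 and 2.35) lie below both labelled wild type (14.1 and 12.3). The Oscar panel (6.49 and 7.06 against 9.37 and 10.5) and the Plcg2 panel (4.33 and 2.35 against 23.4 and 6.39) separate in the same direction. In the other Syk panel the labels overlap.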

How the data were processed

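Groups and replicate numbers came from the submitters' labels. The authors deposited counts per gene for RNA and counts per peak for 5hmC; RNA was ribosomal-RNA-depleted and the 5hmC DNA biotin-tagged, per the labels. Tools in the submitters' processing notes are STAR, HTSeq, BWA, MACS2, Trim Galore and CASAVA 1.4, on build GRCm38; strand setting and annotation release were not stated. Of 47731 gene IDs, 47224 matched a symbol. A peak was assigned to each RefSeq gene body (GRCm38.p6) it overlapped by at least 1 base; by their names 7044 peaks were called in wild type, 1151 in knockout and 956 in both. No RefSeq gene overlapped a member.

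Both assays were fitted in edgeR 4.0.16 on R 4.3.3 (quasi-likelihood test, TMM scaling, filterByExpr, Benjamini-Hochberg adjustment over all tested rows, threshold 0.05), with DESeq2 1.42.0 and limma 3.58.1 (limma-voom) as alternatives. Normalised CPM divide counts by the TMM-scaled library size in units of 1000000; limits for a count of 0 use 3 counts. The difference between the 2 knockout 5hmC libraries was below sampling noise (a chi-square of 0.575 for each degree of freedom, over 2544 peaks, against 1.20 for the wild-type pair) and entered as 1 sample, their rounded mean. PCR reads without molecular identifiers are not independent molecules, so intervals cover counting error only. Ratios used counts and an exact permutation test with SciPy 1.17.1; similarity used log2(normalised CPM + 0.5).

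The members and the gene lists were chosen with earlier results of these data known. All members are named, with the 4 tested genes of each list that had the smallest unadjusted edgeR p, and for each member the 2 most similar genes. Trem1 and Siglecg were named after their values were seen, to show a limit. Planned ratios with Oscar and Siglec15 were not computed because a library had a count of 0. Protein and peak sequences were not used here.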

Additional observations from a re-analysis of the deposited data

How the results depend on the processing

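For the 7 tested members, 90 of 91 alternative fits kept the direction and the side of the threshold, 1 (Trem2 in DESeq2) passed it, and none reversed. Log2 differences over the 13 alternatives ran from -2.81 to -1.69 for Trem2, -1.39 to -0.55 for Tyrobp, -1.17 to -0.53 for Pirb, 0.06 to 0.38 for Fcer1g, 0.32 to 1.10 for Syk, 0.12 to 0.28 for Plcg2 and 0.21 to 0.48 for Btk. Adjusted p for Trem2 ran from 0.00485 to 0.995. DESeq2 called 1 member where edgeR called 0.

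Genes called higher over the whole table numbered 2 in edgeR, 500 in DESeq2, 1 in limma-voom, 0 with total-count scaling (1945 genes at an unadjusted p under 0.05 in either direction), 0 with the replicate block (2104) and 0 to 0 when any 1 library was left out (595 to 2510). Genes called lower numbered 0 in edgeR (1167 by the unadjusted p) and 711 in DESeq2. The cause was not tested.

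Called 5hmC peaks numbered 169 in the fit reported, 63 in DESeq2, 0 with total-count scaling (439 at an unadjusted p under 0.05), 435 with no filter and 442 with at least 1 CPM in 2 libraries. With the knockout libraries as 2 samples they numbered 303, and 258 with the replicate block added, a fit chosen after seeing the data. Leaving out a knockout library gave 185 to 234. Fits without a wild-type 5hmC library leave 1 against 1 and were not run, and the block could not be fitted with the merged knockout sample. The cause was not tested.

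Same-numbered libraries did not deviate together (r = 0.0705 and -0.0936 over 14851 genes). With 2 knockout libraries their deviations mirror each other, so these values cannot show whether the numbers pair libraries. The labels do not state a pairing. With the block the Trem2 to Tyrobp ratio differed by -1.27 and the Fcer1g to Tyrobp ratio by 1.36. Depth limits Oscar, Siglec15 and all 4 member peaks.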

Other observations

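Receptor families that hold both activating and inhibitory members showed no common pattern; they were looked at after their values were seen. In the PILR family the activating Pilrb1 and Pilrb2 differed by 2.01 and 1.14 on the log2 scale, knockout label over wild-type label, and the inhibitory Pilra by 1.12. In the CD300 family the activating Cd300lb, Cd300c2 and Cd300ld differed by -1.55, -1.46 and -0.32, and the inhibitory Cd300a and Cd300lf by -2.83 and -2.73. The families of SIRP and PIR held members on both sides: Sirpb1a, Sirpb1b and Sirpb1c differed by 1.82, 0.81 and 1.12 against -0.34 for the inhibitory Sirpa, and Pira2 and Lilra6 by -2.65 and 1.25 against -0.86 for the inhibitory Pirb. No gene of these families passed the adjusted threshold in edgeR; DESeq2 called Pira2, Cd300a and Cd300lf.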
